A study of Homo sapiens with 28 samples.

Results

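HepG2 cells were exposed to 2,3,7,8-tetrachlorodibenzo-p-dioxin (TCDD) and compared with cells given its solvent, dimethyl sulfoxide (DMSO), at the level of messenger RNA. Of the 28 libraries of the series, 8 enter this comparison, 4 from TCDD cells and 4 from DMSO cells, chosen by their treatment labels. HepG2 is an established human line from a liver cancer, labelled as hepatocyte, and in both groups it was kept without serum for 24 h before an exposure of 24 h. TCDD was given at 100 nM, and DMSO made up no more than 0.1% of the medium. The remaining libraries, also 4 per group, came from cells exposed to PFOS (10 µM), BPA (75 µM), TBTCl (0.1 µM) or CdCl2 (0.5 µM) for the same time, and from cells given water, the control of CdCl2. The submitters record that the names of the TCDD and PFOS libraries were exchanged after deposit, and the corrected names are used here. The labels describe 4 independent experiments but do not say whether equal replicate numbers mark the same experiment. Values of a group are listed in the order of replicates 1 to 4.

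TCDD is the best known activating ligand of the aryl hydrocarbon receptor (AHR). The receptor waits in the cytosol in a chaperone complex, moves to the nucleus when a ligand binds, pairs there with ARNT, and activates genes whose DNA holds the xenobiotic response element, with the core letters GCGTG. In liver its best known targets are the CYP1 enzymes, and its repressor AHRR and the ADP-ribosyltransferase TIPARP limit the response. In rodents TCDD is also known for fatty liver, wasting and altered cholesterol and glucose metabolism.

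The 8 libraries held 33.2 to 65.2 M counts in TCDD and 31.4 to 66.0 M counts in DMSO, and 3 counts correspond to 0.0454 to 0.0955 CPM, the count scaled to the size of its library, a floor that covers counting error only. Of 63139 gene rows, 18849 held enough counts to be tested. Fold changes are TCDD over DMSO from edgeR's quasi-likelihood fit to all 28 libraries, p-values were adjusted over all tested genes by the Benjamini-Hochberg method, and a gene was called at an adjusted p below 0.05. Mitochondrial transcripts took 5.74 to 7.02% of the counts in TCDD and 3.55 to 8.23% in DMSO. The 12 hepatocyte markers summed to 39702 to 59795 CPM in TCDD and 43122 to 81049 CPM in DMSO, and edgeR and DESeq2 called none of them, with 1 higher and 1 lower at an unadjusted p below 0.05. Albumin (ALB) stood at 8259 ± 2597 CPM in TCDD, against 13602 ± 6392 CPM in DMSO and alpha-fetoprotein (AFP) at 8173 ± 3101 CPM in TCDD, against 10929 ± 3781 CPM in DMSO. Markers of leukocytes, endothelium and stroma summed to 1627 to 3185 CPM in TCDD and 1928 to 2535 CPM in DMSO over 17 genes. PTPRC, CD3E, KDR and DCN had 3 counts or fewer in each of the 8 libraries, so these sums come almost wholly from other members. Of the 17 genes, 10 held enough counts to be tested, and 1 was called higher and 1 lower. In these bulk samples, fewer cells of a type and less RNA per cell cannot be told apart.

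TCDD changed 1743 genes, 9.25% of those tested. 1215 genes rose (6.45%) and 528 fell (2.80%). By at least 2-fold, 689 rose (3.66%) and 191 fell (1.01%). Of the 1215 rises, 121 came from the 235 tested genes below 0.1 CPM in DMSO, none of which fell. Such genes could pass the filter on counts only through a group in which they were higher, so rises and falls are not counted on equal terms. Without TCDD replicate 2 only 298 genes fell. By size, 54 genes rose by 32-fold or more and none fell by as much, while 97 rose and 7 fell by 8-fold to 32-fold. The count of very large rises includes genes near 0 in DMSO, which passed the filter on counts only through other groups. Within ranges of DMSO level the medians of called changes were closer in size. The median log2 fold change was 1.81 for rises and -1.79 for falls at 0.1 to 1 CPM, 1.10 and -1.06 at 1 to 10 CPM, and 0.77 and -0.59 at 10 to 100 CPM. These medians cover called genes only, so they depend on the size of change that could be called at each level. At 0.1 to 1 CPM the lowest genes, such as ALPL and SCUBE1, also passed only through a group in which they were higher. Rises and falls in that range are therefore not on equal terms either. Changes of less than 2-fold made up 43.3% of the rises and 63.8% of the falls. The median log2 fold change over all tested genes was -0.01. For 2890 genes (15.3%) the groups shared no range of values, 1768 with TCDD above (9.38%) and 1122 with TCDD below (5.95%).

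**Figure D1:**
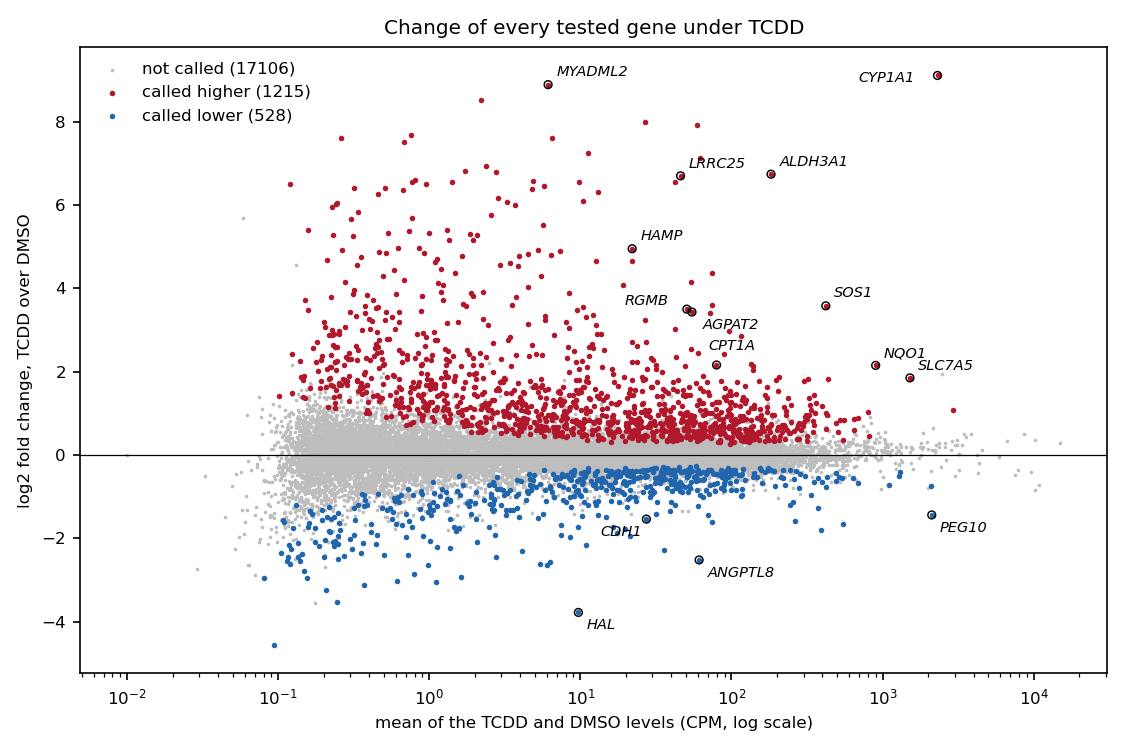
Each point is 1 of 18849 tested genes, with its mean level over the 4 TCDD and 4 DMSO libraries (CPM, log axis) and its log2 fold change, TCDD over DMSO; red points were called higher, blue points lower. The upper side reaches a log2 fold change of 9.11 at CYP1A1, while HAL, the most reduced of the labelled genes, lies at -3.78.

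The CYP1 enzymes, monooxygenases that oxidise polycyclic aromatic compounds and oestrogens, all rose, 3 of 3, with a median log2 fold change of 7.60. Over all tested genes 6.45% rose. CYP1A1 had 2841, 6409.9, 4959 and 4243 CPM in TCDD, against 9.99, 16.9, 3.73 and 2.82 CPM in DMSO. Its lowest TCDD library was far above its highest DMSO library (log2 fold change 9.11 ± 1.15 SE, adjusted p = 1.96e-06), and its transcripts made up 0.287 to 0.607% of all counts in TCDD against 0.000295 to 0.00174% in DMSO. CYP1A2 had 8.32, 23.5, 11.0 and 8.52 CPM in TCDD, against 0.0305, 0.143, 0.0371 and 0.0290 CPM in DMSO (log2 fold change 7.60 ± 0.68 SE, adjusted p = 5.24e-09). CYP1B1 had 6.45, 6.06, 5.42 and 4.08 CPM in TCDD, against 0.122, 0.0318, 0.0186 and 0.0435 CPM in DMSO (log2 fold change 6.80 ± 0.55 SE, adjusted p = 9.78e-10). Neither gene overlapped between the groups, but the DMSO values rest on few reads: 1, 9, 2 and 2 counts for CYP1A2 and 4, 2, 1 and 3 counts for CYP1B1. Both could pass the filter on counts only through a group in which they were higher. The count of 3 of 3 and its median are therefore no measure of how often such genes rise. The pooled ratio of TCDD to DMSO was 216 (129 to 396) for CYP1A2 and 123 (66.5 to 257) for CYP1B1, with exact 95% counting intervals in parentheses. When DMSO replicate 2 was left out, the log2 fold changes of CYP1A1 and CYP1A2 were 9.72 and 8.51.

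Over all tested genes 6.45% rose and 2.80% fell, and the counts of this paragraph are to be read against these shares. The receptor's own complex showed a single call among 12 tested members, with a median log2 fold change of 0.05. That gene was AHRR, the repressor that competes with the receptor for ARNT, at 1.77, 2.07, 1.99 and 1.98 CPM in TCDD, against 0.0305, 0.0795, 0.0742 and 0 CPM in DMSO (log2 fold change 5.33 ± 0.46 SE, adjusted p = 3.74e-09). The DMSO libraries held 1, 5, 4 and 0 counts of AHRR, and the pooled ratio was 42.9 (23.1 to 90.2). At that level it could pass the filter on counts only through a group in which it was higher. AHR itself had 22.7, 21.5, 24.7 and 19.8 CPM in TCDD, against 17.3, 24.0, 20.3 and 17.5 CPM in DMSO, and the ranges overlapped (adjusted p = 0.622). Its partner ARNT (30.9 to 37.1 CPM in TCDD, against 30.7 to 41.4 CPM in DMSO, adjusted p = 0.744) was not called either. TIPARP had 27.6, 18.8, 17.0 and 17.9 CPM in TCDD, against 13.7, 17.4, 17.1 and 13.2 CPM in DMSO, a log2 fold change of 0.41 ± 0.17 SE that did not pass the test (adjusted p = 0.158).

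**Figure D2:**
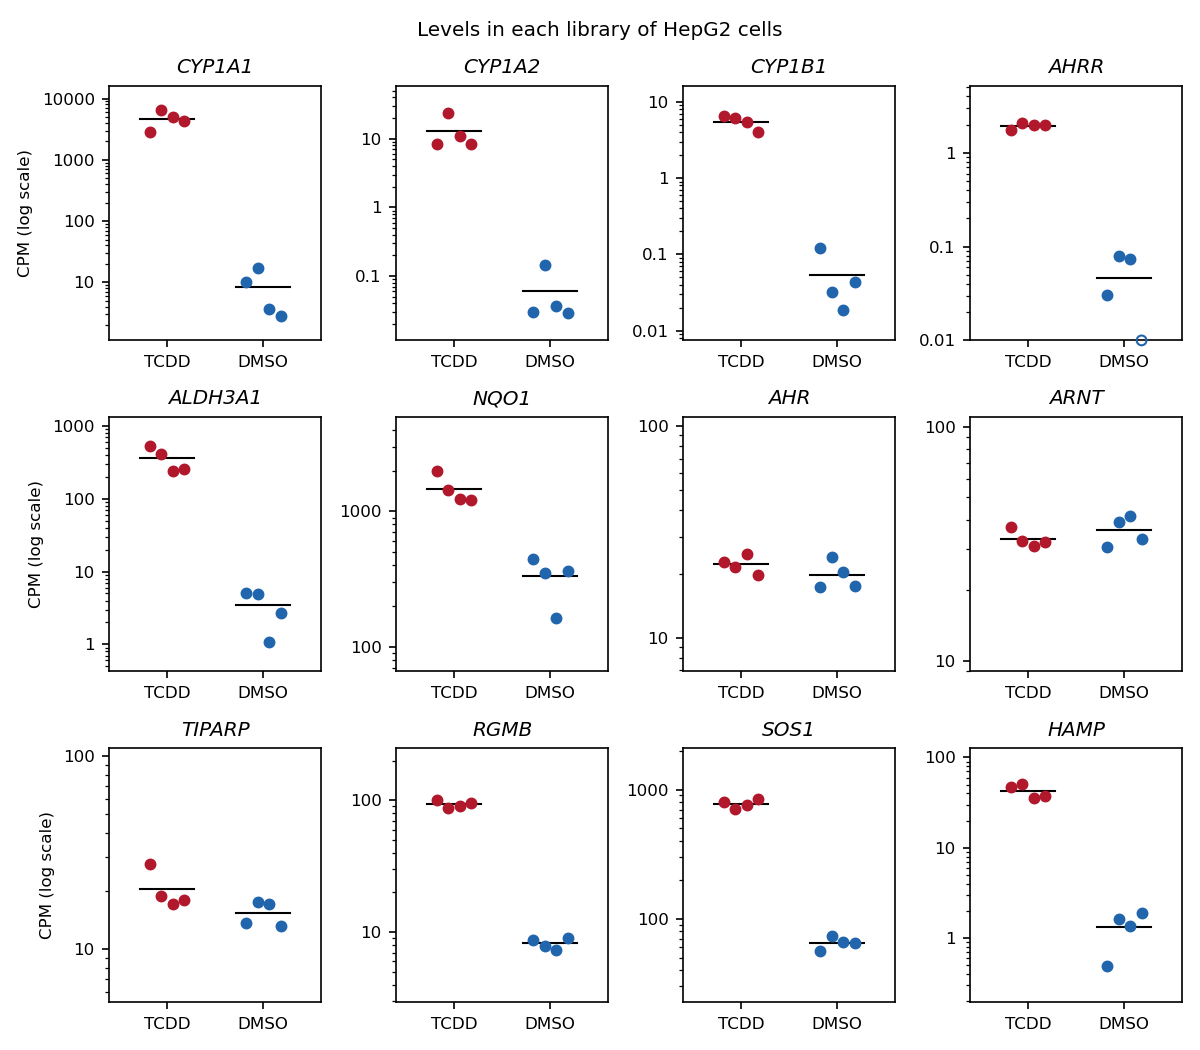
Levels of 12 genes in the 4 TCDD (red, left) and 4 DMSO (blue, right) libraries, in CPM on a log axis that differs between panels; black lines are means, and an open circle at the lower edge is a library with 0 counts. CYP1A1, CYP1A2, CYP1B1, AHRR, ALDH3A1, NQO1, RGMB, SOS1 and HAMP do not overlap between the groups, while AHR, ARNT and TIPARP do.

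Of the other enzymes of the classical AHR battery 2 of 8 tested rose, with a median log2 fold change of 1.04. The share of rises over all tested genes was 6.45%. ALDH3A1, which oxidises aromatic and fatty aldehydes, had 533, 413, 241 and 259 CPM in TCDD, against 5.06, 4.87, 1.06 and 2.72 CPM in DMSO (log2 fold change 6.74 ± 0.84 SE, adjusted p = 1.61e-06). The quinone reductase NQO1 had 1993, 1439, 1229.7 and 1218 CPM in TCDD, against 442, 353, 164 and 363 CPM in DMSO (log2 fold change 2.15 ± 0.34 SE, adjusted p = 5.81e-05). Both stood higher in every TCDD library than in any DMSO library. UGT1A6, a glucuronosyltransferase, stood at 0.620 ± 0.188 CPM in TCDD, against 0.213 ± 0.156 CPM in DMSO and was not called (adjusted p = 0.112); the UGT1A genes share their last exons, so reads could be divided among them or left out. 2 members were called lower without TCDD replicate 1, and none in the fit to all libraries. GSTP1, a glutathione transferase chosen after its values were seen, had 175, 172, 71 and 123 counts in TCDD and 1, 3, 0 and 2 counts in DMSO (pooled ratio 105 (48.0 to 288), adjusted p = 4.19e-10). It could pass the filter on counts only through a group in which it was higher.

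The promoters of 6 genes that hold the motif of the receptor are shown: CYP1A1 and AHRR as classical targets, FMOD and CDX2 from the largest rises, RGMB with the smallest p-value of all, and PAQR9 from the largest falls. They were picked among named genes of which many lack the motif, as listed below the sequences. Each window runs from 250 bases before to 50 bases after the RefSeq start of the gene in GRCh38.p14, 5′ to 3′ on the gene's own strand, and capitals mark GCGTG or, where the motif lies on the other strand, CACGC. The windows are chr15:74725479-74725778 (minus strand) for CYP1A1, chr5:321464-321763 (plus strand) for AHRR, chr1:203351073-203351372 (minus strand) for FMOD, chr13:27969266-27969565 (minus strand) for CDX2, chr5:98768382-98768681 (plus strand) for RGMB and chr3:142963959-142964258 (minus strand) for PAQR9.
CYP1A1: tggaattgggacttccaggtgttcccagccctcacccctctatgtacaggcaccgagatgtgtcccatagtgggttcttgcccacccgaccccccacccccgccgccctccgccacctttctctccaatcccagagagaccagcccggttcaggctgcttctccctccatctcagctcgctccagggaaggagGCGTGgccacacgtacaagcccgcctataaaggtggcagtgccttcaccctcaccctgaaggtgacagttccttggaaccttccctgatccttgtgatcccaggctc
AHRR: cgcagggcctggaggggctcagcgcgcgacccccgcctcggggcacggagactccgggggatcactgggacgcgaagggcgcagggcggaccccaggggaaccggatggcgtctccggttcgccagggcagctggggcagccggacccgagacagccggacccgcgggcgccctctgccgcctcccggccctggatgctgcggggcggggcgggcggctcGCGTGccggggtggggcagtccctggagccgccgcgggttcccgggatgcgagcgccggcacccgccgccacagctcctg
FMOD: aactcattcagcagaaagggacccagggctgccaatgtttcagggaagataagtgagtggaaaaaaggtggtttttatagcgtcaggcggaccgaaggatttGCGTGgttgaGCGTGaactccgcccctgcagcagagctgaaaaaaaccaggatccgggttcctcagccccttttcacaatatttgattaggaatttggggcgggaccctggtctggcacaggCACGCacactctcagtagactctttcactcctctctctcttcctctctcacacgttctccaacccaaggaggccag
CDX2: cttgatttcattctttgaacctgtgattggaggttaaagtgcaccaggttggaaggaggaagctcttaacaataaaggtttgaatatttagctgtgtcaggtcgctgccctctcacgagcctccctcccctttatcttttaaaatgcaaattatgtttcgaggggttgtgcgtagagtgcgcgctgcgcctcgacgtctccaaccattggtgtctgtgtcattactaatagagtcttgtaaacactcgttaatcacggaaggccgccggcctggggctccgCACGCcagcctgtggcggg
RGMB: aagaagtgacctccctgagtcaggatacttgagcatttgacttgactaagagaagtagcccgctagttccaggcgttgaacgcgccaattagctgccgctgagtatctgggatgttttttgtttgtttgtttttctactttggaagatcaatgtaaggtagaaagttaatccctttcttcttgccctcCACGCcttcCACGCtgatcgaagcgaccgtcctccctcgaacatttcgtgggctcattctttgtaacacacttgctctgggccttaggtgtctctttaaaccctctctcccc
PAQR9: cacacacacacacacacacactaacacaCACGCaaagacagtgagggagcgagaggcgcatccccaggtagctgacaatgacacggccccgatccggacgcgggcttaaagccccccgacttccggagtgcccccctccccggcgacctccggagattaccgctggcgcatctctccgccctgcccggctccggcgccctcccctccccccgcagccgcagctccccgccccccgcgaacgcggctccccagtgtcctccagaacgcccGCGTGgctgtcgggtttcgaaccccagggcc
CYP1A1 held 1 copy of GCGTG in this window, AHRR 1, FMOD 3, CDX2 1, RGMB 2 and PAQR9 2. Among the other largest rises with a window, NKAIN1 held 1 copy. MYADML2, PLA2G4F, LIM2, CYP1A2, LRRC25, ALPL and VIPR1 held 0. Among the other genes with the smallest p-values, SOS1 and BMF held 1 copy each, and OLFM2, C5AR2, LMCD1 and AQP3 held 0. Among the other largest falls, ANGPTL8 held 2 and CGN 1, and HAL, HOXD1, RHBDL2 and EGR1 held 0. The longer form TNGCGTG, which contains the core, was present once in AHRR, FMOD, CDX2 and PAQR9 and not in the windows of CYP1A1 and RGMB. CYP1A1 is known to be driven mainly by elements farther upstream, outside this window. A match is a description of letters and not a measured binding site.

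Over all tested genes with such a window, GCGTG on either strand was present in 49.1% (5878 of 11977). It was present in 42.2% of the promoters of genes called higher (346 of 820) and in 54.1% of those called lower (206 of 381), but in 44.4% of those called lower by at least 2-fold (52 of 117). The share for genes called lower lay above or below that of all tested genes depending on the call rule, as it was 47.9% in a test against 1.5-fold and 48.0% with no filter on low counts. TNGCGTG was present in 7.80% of the promoters of genes called higher, 6.30% of those called lower and 7.14% of all. Of the genes called higher by at least 8-fold, 34.4% held GCGTG (32 of 93), and of those called higher by at least 2-fold, 40.8% (172 of 422). The share rises with the GC content of the window. In windows with 60 to 70% GC it was 42.5% for genes called higher by at least 2-fold and 55.5% for genes not called, and in windows below 50% GC it was 17.9% and 18.3%.

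Of other genes reported as AHR targets 10 of 17 tested rose and 1 fell, with a median log2 fold change of 0.74. The shares over all tested genes were 6.45% higher and 2.80% lower. NFE2L2, which encodes the antioxidant regulator NRF2, had 225, 215, 256 and 224 CPM in TCDD, against 153, 132, 128 and 139 CPM in DMSO (log2 fold change 0.74 ± 0.10 SE, adjusted p = 4.47e-06). SLC7A5, the light chain of the large neutral amino acid transporter, had 2698, 2187, 1990.4 and 2629 CPM in TCDD, against 646, 531, 573 and 891 CPM in DMSO (log2 fold change 1.85 ± 0.19 SE, adjusted p = 1.05e-07). These 2 abundant transcripts did not overlap between the groups. ABCG2, a drug efflux pump, rose to 30.8 ± 5.63 CPM in TCDD, against 11.0 ± 1.73 CPM in DMSO (adjusted p = 1.07e-06). CD36, the fatty acid uptake receptor, rose to 22.7 ± 4.85 CPM in TCDD, against 5.28 ± 2.11 CPM in DMSO (adjusted p = 5.34e-06). The integrin subunit ITGB7 rose by 3.16 on the log2 scale, and by 2.52 without TCDD replicate 1, which alone had 4.85 CPM where the others had 1.25 to 1.86 CPM. The Notch target HES1 rose by 1.05 and the protease inhibitor SERPINB2 by 3.02 on the log2 scale. SERPINB2 had 7, 7, 2 and 2 counts in DMSO and could pass the filter on counts only through a group in which it was higher. VAV3, an exchange factor for small GTPases, fell, with 13.5 to 17.0 CPM in TCDD, against 22.0 to 40.3 CPM in DMSO (log2 fold change -1.10 ± 0.24 SE, adjusted p = 0.00227).

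The largest rises included genes that DMSO cells barely expressed. MYADML2 had 10.6, 16.2, 11.5 and 10.7 CPM in TCDD, against 0.0305, 0, 0.0557 and 0.0145 CPM in DMSO, which is 1, 0, 3 and 1 counts in DMSO (pooled ratio 552 (236 to 1701)). The fit gave a log2 fold change of 8.89, and 9.67 without DMSO replicate 3. PLA2G4F, a cytosolic phospholipase, had 86.4, 60.1, 27.2 and 40.9 CPM in TCDD, against 0.183, 0.334, 0.278 and 0.0435 CPM in DMSO (log2 fold change 7.99 ± 0.58 SE, adjusted p = 2.14e-10). LIM2, a membrane protein known from the lens, had 80.5, 165, 116 and 109 CPM in TCDD, against 0.274, 0.366, 0.445 and 0.768 CPM in DMSO (log2 fold change 7.92 ± 0.59 SE, adjusted p = 3.12e-10). All 4 TCDD libraries of each of these genes stood far above all DMSO libraries.

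Fibromodulin (FMOD), a collagen-binding proteoglycan, had 20.6, 32.1, 18.5 and 17.4 CPM in TCDD, against 0.366, 0.0795, 0.0371 and 0.159 CPM in DMSO (log2 fold change 7.25 ± 0.61 SE, adjusted p = 2.19e-09). CDX2, a homeobox factor that specifies intestinal epithelium, had 22.9, 18.4, 16.9 and 18.9 CPM in TCDD, against 0.244, 0.270, 0.0186 and 0.275 CPM in DMSO (log2 fold change 6.55 ± 0.46 SE, adjusted p = 1.28e-10). WNT11, a ligand of noncanonical WNT signalling, had 81.8, 98.7, 72.3 and 80.2 CPM in TCDD, against 0.792, 1.19, 0.408 and 1.09 CPM in DMSO (log2 fold change 6.56 ± 0.53 SE, adjusted p = 9.97e-10). LRRC25, a leucine-rich repeat protein known from myeloid cells, had 91.2 ± 8.11 CPM in TCDD, against 0.883 ± 0.249 CPM in DMSO, NKAIN1, which interacts with the sodium pump, 123 ± 47.9 CPM in TCDD, against 0.877 ± 0.142 CPM in DMSO, the alkaline phosphatase ALPL 9.63 ± 5.40 CPM in TCDD, against 0.105 ± 0.0552 CPM in DMSO, the receptor VIPR1 11.4 ± 4.71 CPM in TCDD, against 0.121 ± 0.0739 CPM in DMSO, and the secreted protein SCUBE1 9.43 ± 2.41 CPM in TCDD, against 0.110 ± 0.0126 CPM in DMSO (SD, n = 4 per group). Their log2 fold changes ran between 6.39 for SCUBE1 and 7.13 for NKAIN1. ALPL was uneven among TCDD libraries, with 17.6 CPM in replicate 1 and 5.98 to 7.80 CPM in the others. MYADML2, ALPL and SCUBE1 had fewer than 10 counts in each DMSO library, and FMOD and VIPR1 in some. At such levels a gene could pass the filter on counts only through a group in which it was higher.

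The smallest p-values, beside that of LRRC25, belonged to receptors, a RAS activator and a few other genes. RGMB, a co-receptor for bone morphogenetic proteins (BMP), had 99.6, 87.4, 90.1 and 95.4 CPM in TCDD, against 8.68, 7.89, 7.33 and 9.02 CPM in DMSO (log2 fold change 3.50 ± 0.15 SE, adjusted p = 5.06e-15). SOS1, the exchange factor that loads RAS with GTP, had 799, 704, 766 and 839 CPM in TCDD, against 56.3, 73.0, 65.9 and 65.1 CPM in DMSO (log2 fold change 3.58 ± 0.21 SE, adjusted p = 3.31e-12). ADRA1D, an adrenergic receptor, had 36.0, 36.5, 30.1 and 41.9 CPM in TCDD, against 2.19, 2.43, 1.76 and 2.17 CPM in DMSO (log2 fold change 4.07 ± 0.23 SE, adjusted p = 3.18e-12). In all 3 genes the TCDD libraries lay within a narrow range far above DMSO. The water and glycerol channel AQP3 rose to 141 ± 35.3 CPM in TCDD, against 6.90 ± 1.53 CPM in DMSO, the proapoptotic BH3-only protein gene BMF to 132 ± 22.7 CPM in TCDD, against 12.5 ± 2.02 CPM in DMSO, the prostaglandin D2 receptor PTGDR2 to 137 ± 36.6 CPM in TCDD, against 11.4 ± 1.60 CPM in DMSO, and the LIM-domain protein gene LMCD1 to 38.3 ± 5.14 CPM in TCDD, against 5.83 ± 0.582 CPM in DMSO. C5AR2, a receptor for complement fragment C5a, rose by 6.31 and the secreted protein gene OLFM2 by 6.10 on the log2 scale. The adjusted p was at most 1.78e-11 for each of these 9 genes.

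Among the largest falls, HAL, the first enzyme of histidine breakdown, had 0.418, 2.30, 1.43 and 1.06 CPM in TCDD, against 5.61, 14.5, 36.7 and 15.5 CPM in DMSO (log2 fold change -3.78 ± 0.90 SE, adjusted p = 0.00569). The DMSO libraries themselves spread widely, and without DMSO replicate 3 its log2 fold change was -3.18. DKK4, a secreted WNT inhibitor, had 2.92, 1.30, 1.19 and 1.20 CPM in TCDD, against 12.1, 14.6, 10.9 and 4.21 CPM in DMSO (log2 fold change -2.65 ± 0.41 SE, adjusted p = 5.1e-05). The homeobox gene HOXD1 had 1.19, 2.17, 1.85 and 2.00 CPM in TCDD, against 8.10, 8.16, 14.3 and 12.6 CPM in DMSO (log2 fold change -2.58 ± 0.35 SE, adjusted p = 7.01e-06). Each was lower in every TCDD library than in any DMSO library. ANGPTL8, a secreted regulator of lipoprotein lipase, had 16.9, 19.1, 16.5 and 19.9 CPM in TCDD, against 44.9, 115, 148 and 108 CPM in DMSO (log2 fold change -2.52 ± 0.51 SE, adjusted p = 0.00126). The immediate early transcription factor EGR1 had 10.1, 8.16, 8.90 and 7.81 CPM in TCDD, against 46.5, 16.4, 30.4 and 41.0 CPM in DMSO (log2 fold change -1.94 ± 0.29 SE, adjusted p = 2.14e-05). PAQR9 fell to 12.1 ± 2.02 CPM in TCDD, against 59.1 ± 26.3 CPM in DMSO, the rhomboid protease RHBDL2 to 3.95 ± 1.17 CPM in TCDD, against 17.8 ± 3.10 CPM in DMSO, and the tight junction protein cingulin (CGN) to 3.46 ± 1.19 CPM in TCDD, against 13.7 ± 5.59 CPM in DMSO. AKIRIN1, chosen after its values were seen, had the smallest adjusted p of the falls described here (5.24e-09), at 132 ± 6.88 CPM in TCDD, against 395 ± 36.3 CPM in DMSO.

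**Figure D3:**
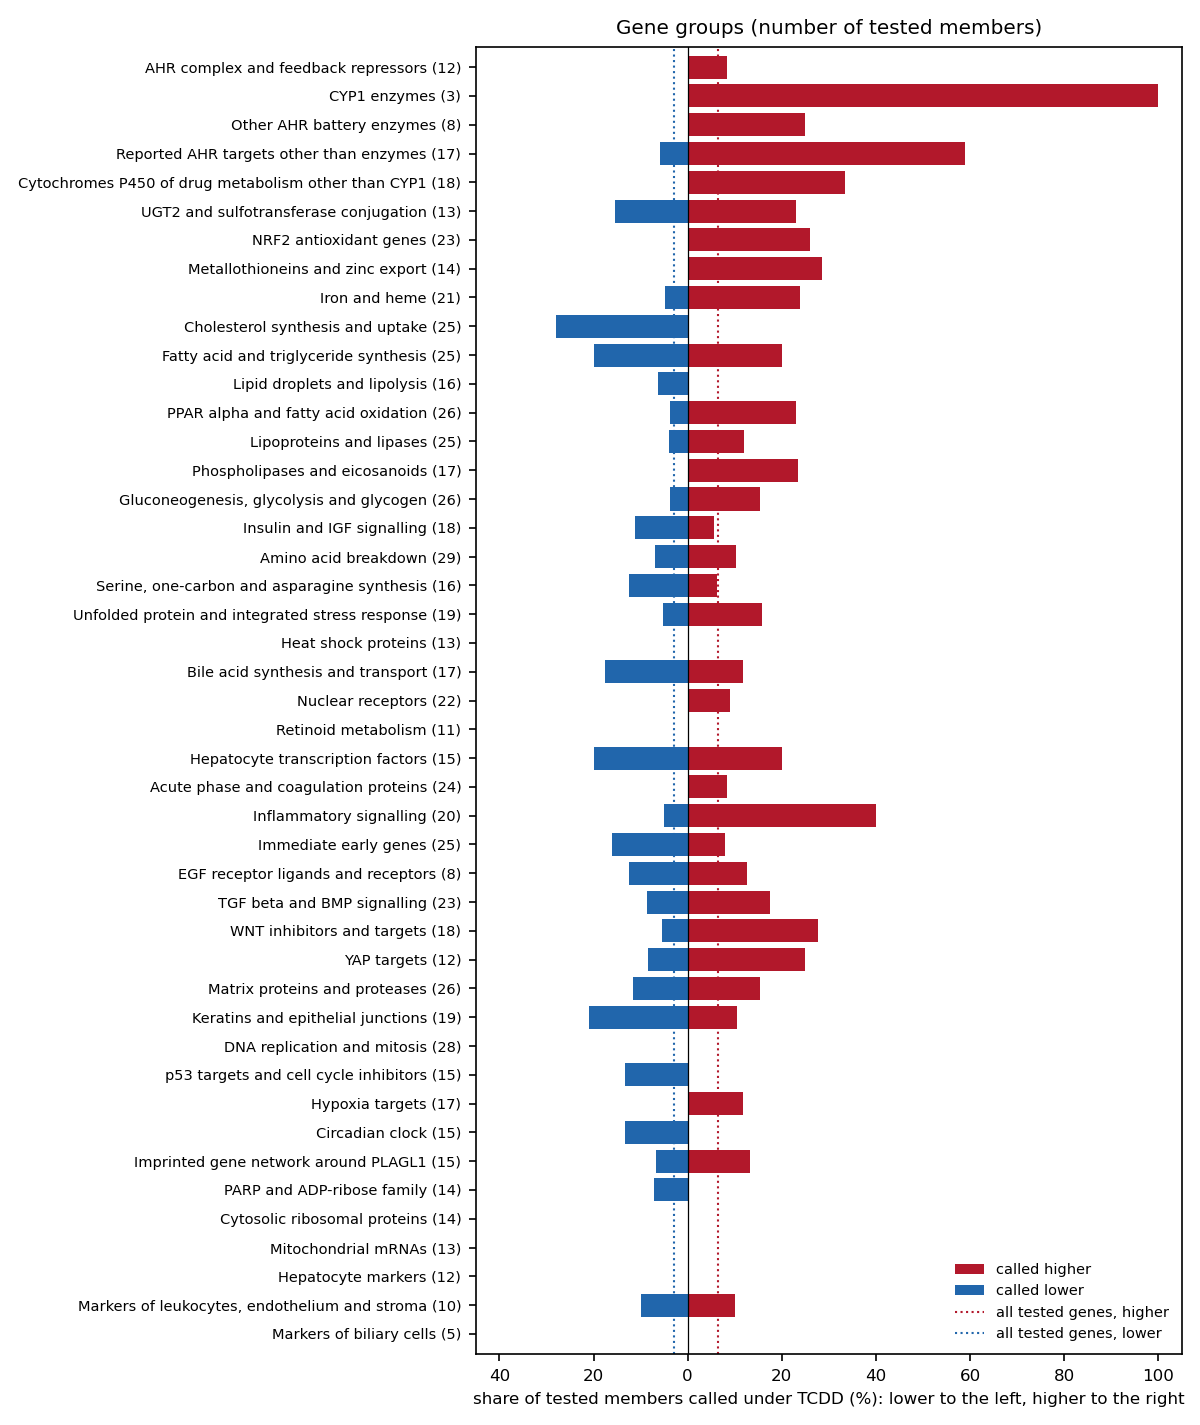
Share of the tested members of 45 gene groups that were called higher (red, to the right) or lower (blue, to the left) under TCDD, in percent; the number of tested members is in parentheses and dotted lines give the shares over all tested genes, 6.45% higher and 2.80% lower. CYP1 enzymes, other reported AHR targets and inflammatory genes have the largest shares called higher, and cholesterol genes the largest share called lower.

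The lists of genes below were described by counts and medians, to be read against 6.45% higher, 2.80% lower and a median of -0.01 over all tested genes. Members below 0.1 CPM in DMSO, such as SULT2B1 and LUM, could pass the filter on counts only through a group in which they were higher. Where edgeR called no member of a list in a direction, DESeq2 called at most 2 there, and at most 3 had an unadjusted p below 0.05. Of 18 tested cytochromes P450 outside the CYP1 family and their electron donors 6 rose and none fell (median 0.34). Without DMSO replicate 4 or TCDD replicate 1, 3 rose, and without DMSO replicate 1, 1 fell. The donors were among those that rose: POR, which passes electrons to all microsomal P450 enzymes, had 689, 761, 677 and 713 CPM in TCDD, against 352, 387, 436 and 410.0 CPM in DMSO (log2 fold change 0.84 ± 0.12 SE, adjusted p = 1.75e-05). Cytochrome b5 (CYB5A) had 202, 221, 175 and 173 CPM in TCDD, against 85.2, 97.8, 91.5 and 78.9 CPM in DMSO (log2 fold change 1.13 ± 0.11 SE, adjusted p = 5.41e-08). CYP4V2, a fatty acid hydroxylase, rose to 13.6 ± 2.36 CPM in TCDD, against 7.43 ± 1.45 CPM in DMSO. The drug-metabolising enzymes CYP2A6, CYP2C8 and CYP2C19 held too few counts to be tested.

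Of 13 tested UGT2 and sulfotransferase genes 3 rose and 2 fell (median -0.19). SULT1A2 rose to 18.9 ± 3.93 CPM in TCDD, against 8.76 ± 1.19 CPM in DMSO. SULT2B1, which sulfates cholesterol, had 31, 28, 20 and 30 counts in TCDD and 3, 4, 3 and 2 in DMSO (pooled ratio 10.6 (5.82 to 21.1)). UGT2B4, which conjugates bile acids, fell to 1.37 ± 0.589 CPM in TCDD, against 6.80 ± 1.75 CPM in DMSO (adjusted p = 3.38e-05). UGT2B11 fell to 0.846 ± 0.345 CPM in TCDD, against 4.64 ± 2.23 CPM in DMSO and the pseudogene UGT2B27P to 1.49 ± 0.552 CPM in TCDD, against 9.33 ± 5.36 CPM in DMSO. Members of the UGT2B and SULT1A families closely resemble each other, so their reads could be divided and single values are uncertain.

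Of 23 tested NRF2 antioxidant genes 6 rose and none fell (median 0.34). Heme oxygenase (HMOX1) had 298, 298, 203 and 233 CPM in TCDD, against 89.9, 93.5, 72.9 and 77.1 CPM in DMSO (log2 fold change 1.63 ± 0.15 SE, adjusted p = 1.63e-08). GCLM, the modifier subunit of glutathione synthesis, had 63.9, 48.4, 46.6 and 40.7 CPM in TCDD, against 22.3, 22.6, 19.5 and 20.5 CPM in DMSO (log2 fold change 1.23 ± 0.19 SE, adjusted p = 5.1e-05). Neither overlapped between the groups. The conjugate efflux pump ABCC3 rose to 88.2 ± 12.4 CPM in TCDD, against 37.4 ± 7.85 CPM in DMSO and OSGIN1 to 64.9 ± 23.0 CPM in TCDD, against 22.4 ± 6.50 CPM in DMSO. Of 14 tested metallothionein and zinc genes 4 rose and none fell (median 1.32), and 2 rose without TCDD replicate 2. The metal-binding MT2A had 122, 316, 207 and 163 CPM in TCDD, against 34.9, 17.0, 21.7 and 38.7 CPM in DMSO (log2 fold change 2.85 ± 0.51 SE, adjusted p = 0.000258), so all TCDD libraries stood above all DMSO libraries, with replicate 2 the highest. MT1A rose to 2.89 ± 1.30 CPM in TCDD, against 0.759 ± 0.301 CPM in DMSO. Metallothionein genes are near copies of each other, and their single values are uncertain.

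Of 21 tested genes of iron and heme 5 rose and 1 fell (median 0.07), and the rises included ID1, ID3 and SMAD7, which are known as BMP targets. Hepcidin (HAMP), the liver hormone that limits iron uptake and is driven by BMP and SMAD proteins, had 47.1, 50.9, 35.2 and 37.5 CPM in TCDD, against 0.487, 1.64, 1.35 and 1.88 CPM in DMSO (log2 fold change 4.95 ± 0.40 SE, adjusted p = 9.97e-10). The BMP targets ID1 and ID3, inhibitors of basic helix-loop-helix factors, had 197 ± 24.0 and 93.1 ± 16.3 CPM in TCDD, against 86.6 ± 25.0 and 30.8 ± 9.90 CPM in DMSO (adjusted p = 0.0022 and 0.000691). SMAD7, the feedback inhibitor, rose to 20.7 ± 2.28 CPM in TCDD, against 9.51 ± 1.54 CPM in DMSO (adjusted p = 0.00023). The transferrin receptor TFRC fell to 349 ± 47.9 CPM in TCDD, against 508 ± 20.5 CPM in DMSO (adjusted p = 0.017), and without TCDD replicate 2 it was not called (log2 fold change -0.47, adjusted p = 0.0833), which left no member of the list lower.

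Of 23 tested TGF beta and BMP genes 4 rose and 2 fell (median 0.13), and 2 rose without TCDD replicate 3. The ligand BMP4 had 333, 363, 294 and 250.2 CPM in TCDD, against 150.4, 155, 163 and 132 CPM in DMSO (log2 fold change 1.05 ± 0.12 SE, adjusted p = 3.39e-07). TGFB3 rose to 3.32 ± 0.628 CPM in TCDD, against 1.56 ± 0.195 CPM in DMSO. The receptor TGFBR2 fell to 210.0 ± 21.2 CPM in TCDD, against 312 ± 12.4 CPM in DMSO and the activin subunit INHBB to 0.494 ± 0.249 CPM in TCDD, against 2.25 ± 1.06 CPM in DMSO. The inhibitor SMAD6 had 12.1 to 13.5 CPM in TCDD, against 6.25 to 12.0 CPM in DMSO and was not called (adjusted p = 0.112), but it was called higher without DMSO replicate 4 (adjusted p = 0.0271). The further BMP targets ID2 and ATOH8 were chosen after their values were seen. ID2 had 358, 228, 175 and 183 CPM in TCDD, against 60.1, 85.9, 73.4 and 56.7 CPM in DMSO (log2 fold change 1.77 ± 0.22 SE, adjusted p = 2.15e-06), and ATOH8, a regulator of hepcidin, rose by 4.61 on the log2 scale, or by 5.27 without DMSO replicate 2.

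**Figure D4:**
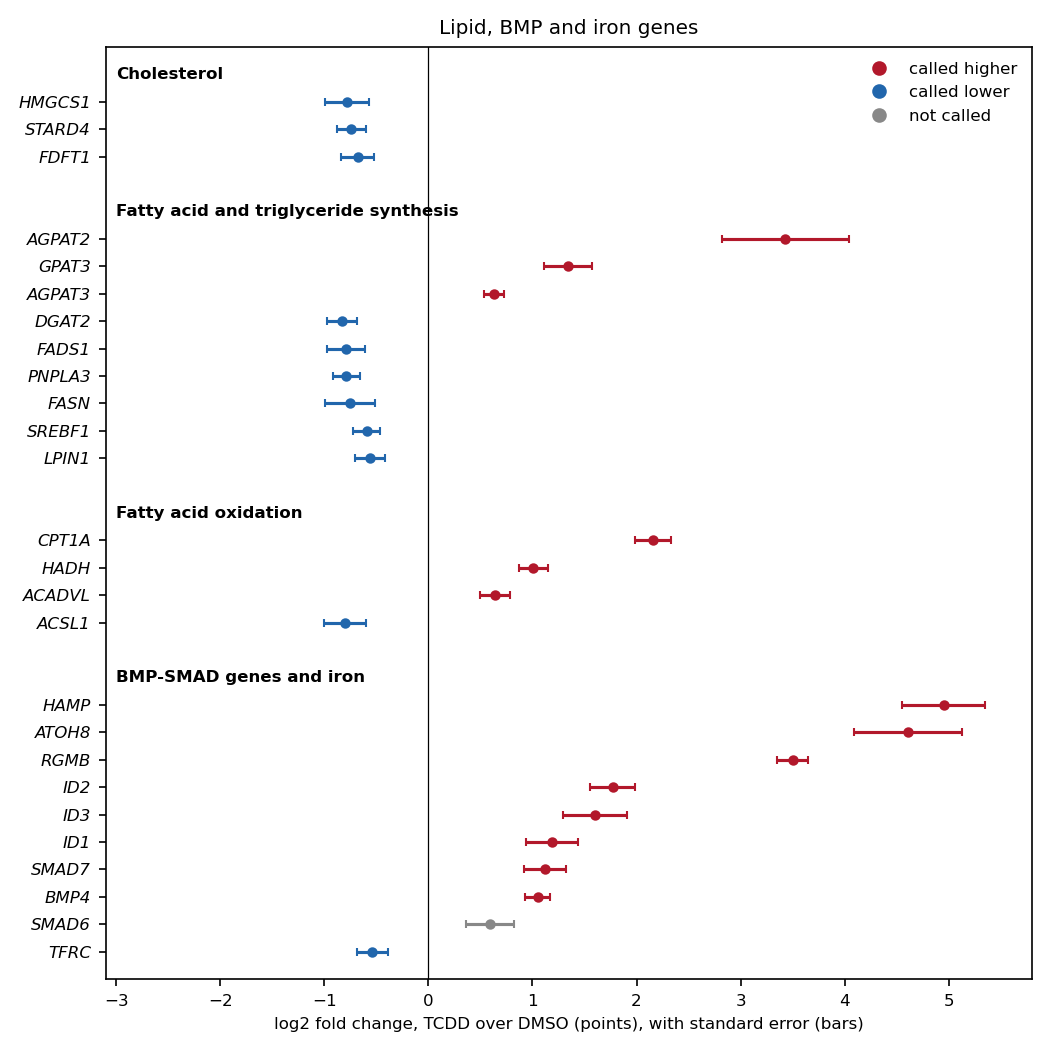
Log2 fold changes, TCDD over DMSO (points), with standard errors (bars) for genes of cholesterol, fatty acid and triglyceride synthesis, fatty acid oxidation, and BMP signalling with iron; red, called higher; blue, called lower; grey, not called. Acyltransferases AGPAT2, GPAT3 and AGPAT3 lie to the right of 0, FASN, DGAT2 and the cholesterol genes to the left, and HAMP lies at 4.95.

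Several cholesterol genes fell. Of 25 tested genes of cholesterol synthesis and uptake 7 fell and none rose (median -0.33). Without DMSO replicate 4 or TCDD replicate 2, 3 fell, and without TCDD replicate 3, 4 fell. FDFT1, the squalene synthase, had 475, 473, 561 and 588 CPM in TCDD, against 769, 781, 799.9 and 1016 CPM in DMSO (log2 fold change -0.68 ± 0.16 SE, adjusted p = 0.00577). STARD4, a sterol carrier, fell to 34.7 ± 4.16 CPM in TCDD, against 57.9 ± 4.36 CPM in DMSO (adjusted p = 0.000507). HMGCS1 fell to 313 ± 51.9 CPM in TCDD, against 536 ± 152 CPM in DMSO (adjusted p = 0.0154) but was not called without DMSO replicate 4 (log2 fold change -0.56, adjusted p = 0.100) or without TCDD replicate 2 (-0.70, adjusted p = 0.0698). DMSO replicate 4 was the highest library for FDFT1 and HMGCS1.

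Fatty acid and triglyceride synthesis was split, with 5 of 25 tested members higher and 5 lower (median -0.29). 3 rose without DMSO replicate 2. Acyltransferases of glycerolipid synthesis were among the rises. AGPAT2, which makes phosphatidic acid and whose loss causes lipodystrophy in humans, had 45.6, 164, 103 and 88.8 CPM in TCDD, against 6.85, 4.88, 7.38 and 18.0 CPM in DMSO (log2 fold change 3.43 ± 0.61 SE, adjusted p = 0.000284). GPAT3 had 18.9, 13.7, 17.6 and 15.9 CPM in TCDD, against 7.52, 6.82, 4.92 and 6.92 CPM in DMSO (log2 fold change 1.34 ± 0.23 SE, adjusted p = 0.000174). AGPAT3 rose to 124 ± 8.68 CPM in TCDD, against 80.4 ± 3.80 CPM in DMSO (adjusted p = 0.000112). In contrast DGAT2, which adds the last acyl chain of triglycerides, had 59.4, 50.2, 40.3 and 46.8 CPM in TCDD, against 85.0, 97.1, 91.9 and 75.7 CPM in DMSO (log2 fold change -0.83 ± 0.14 SE, adjusted p = 8.59e-05). The desaturase FADS1 fell to 206 ± 44.8 CPM in TCDD, against 356 ± 80.3 CPM in DMSO, the lipogenic regulator SREBF1 to 98.3 ± 19.2 CPM in TCDD, against 148 ± 25.5 CPM in DMSO and the phosphatase LPIN1 to 25.2 ± 2.17 CPM in TCDD, against 37.1 ± 4.32 CPM in DMSO. Fatty acid synthase (FASN) fell to 1549 ± 452 CPM in TCDD, against 2605 ± 549.7 CPM in DMSO with an adjusted p of 0.0465 and was not called without DMSO replicate 2, 3 or 4 or TCDD replicate 2 or 3 (adjusted p between 0.0672 and 0.192).

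Of 16 tested lipid droplet genes 1 fell and none rose (median -0.15), and 1 rose without TCDD replicate 4. The fall was that of PNPLA3, a lipase whose coding variant is a known risk factor for fatty liver, with 27.9, 26.2, 26.2 and 29.5 CPM in TCDD, against 36.4, 49.5, 58.5 and 44.8 CPM in DMSO (log2 fold change -0.79 ± 0.13 SE, adjusted p = 0.000155). Of 26 tested PPAR alpha targets and enzymes of fatty acid oxidation 6 rose and 1 fell (median 0.09). CPT1A, which carries fatty acids into mitochondria at the rate-limiting step, had 141, 132, 122 and 125 CPM in TCDD, against 27.8, 29.3, 30.7 and 28.5 CPM in DMSO (log2 fold change 2.16 ± 0.17 SE, adjusted p = 9.78e-10). The mitochondrial enzymes HADH and ACADVL had 99.4 ± 12.7 and 333 ± 43.0 CPM in TCDD, against 49.3 ± 5.71 and 213 ± 20.0 CPM in DMSO. ACSL1, which activates long-chain fatty acids, fell to 38.7 ± 6.60 CPM in TCDD, against 67.6 ± 7.04 CPM in DMSO (adjusted p = 0.00951).

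Of 25 tested lipoprotein and lipase genes 3 rose and 1, ANGPTL8, fell (median -0.15), and 2 fell without DMSO replicate 1 or TCDD replicate 1. Apolipoprotein C-I (APOC1) rose to 157 ± 34.8 CPM in TCDD, against 56.5 ± 7.06 CPM in DMSO and the transfer protein CETP to 3.03 ± 0.519 CPM in TCDD, against 0.974 ± 0.292 CPM in DMSO. Of 17 tested phospholipase and eicosanoid genes 4 rose and none fell (median 0.14), and 1 fell without TCDD replicate 1. Beside PLA2G4F these included thromboxane synthase (TBXAS1), at 3.00 ± 0.769 CPM in TCDD, against 1.40 ± 0.204 CPM in DMSO, and the lipoxygenase ALOX15, with 54, 29, 15 and 23 counts in TCDD and 6, 9, 3 and 9 in DMSO (pooled ratio 5.22 (3.42 to 8.25)).

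Among 26 tested genes of glucose metabolism 4 rose and 1 fell (median -0.03). 2 rose without any 1 of DMSO replicates 1, 2 and 3 or TCDD replicate 4, and 2 fell without DMSO replicate 1 or 2 or TCDD replicate 1. Pyruvate carboxylase (PC), which feeds gluconeogenesis, had 289.7, 320.2, 274 and 328 CPM in TCDD, against 94.6, 93.7, 113 and 119 CPM in DMSO (log2 fold change 1.53 ± 0.12 SE, adjusted p = 8.36e-10). GCKR, the nuclear inhibitor of glucokinase, had 51.2, 64.2, 43.4 and 43.6 CPM in TCDD, against 15.1, 21.6, 23.6 and 15.9 CPM in DMSO (log2 fold change 1.41 ± 0.20 SE, adjusted p = 1.07e-05). Hexokinase 2 (HK2) fell to 160.2 ± 44.7 CPM in TCDD, against 354 ± 82.0 CPM in DMSO (adjusted p = 0.00488). Of 18 insulin and IGF genes 1 rose, the binding protein IGFBP4, at 304 ± 66.5 CPM in TCDD, against 88.1 ± 18.7 CPM in DMSO, and 2 fell (median -0.01), with 1 fall without DMSO replicate 2 or TCDD replicate 2 or 3.

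Of 29 tested genes of amino acid breakdown 3 rose and 2 fell (median -0.04), and 1 rose without DMSO replicate 4 or TCDD replicate 2. Both falls lie in histidine breakdown, HAL and the next enzyme of that pathway, UROC1, at 1.03 ± 0.302 CPM in TCDD, against 2.76 ± 0.369 CPM in DMSO (adjusted p = 0.00672). FAH, the last enzyme of tyrosine breakdown, rose to 123 ± 18.4 CPM in TCDD, against 64.5 ± 6.46 CPM in DMSO (adjusted p = 1.15e-05). Of 16 genes of serine, one-carbon and asparagine synthesis 1 rose and 2 fell (median -0.12), with 1 fall without DMSO replicate 4 or TCDD replicate 1 or 2. MAT1A, which makes S-adenosylmethionine in liver, rose to 346 ± 100.2 CPM in TCDD, against 149 ± 25.7 CPM in DMSO, and the serine synthesis enzyme PSPH fell to 74.8 ± 3.58 CPM in TCDD, against 95.0 ± 3.58 CPM in DMSO.

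The nuclear receptors that govern bile acids changed in both directions. Of 17 tested bile acid genes 2 rose and 3 fell (median -0.18), and 1 rose without DMSO replicate 1, 2 or 4 or TCDD replicate 1 or 2. NR0B2 (SHP), the repressor that farnesoid X receptor induces, had 46.8, 34.8, 37.5 and 27.5 CPM in TCDD, against 114, 122, 131 and 79.8 CPM in DMSO (log2 fold change -1.61 ± 0.19 SE, adjusted p = 6.18e-07). NR1H4, farnesoid X receptor itself, fell to 11.3 ± 3.46 CPM in TCDD, against 21.5 ± 3.37 CPM in DMSO (adjusted p = 0.0017), and NR5A2, an activator of bile acid synthesis, rose to 4.33 ± 0.518 CPM in TCDD, against 2.09 ± 0.382 CPM in DMSO (adjusted p = 0.000188). The rate-limiting enzyme CYP7A1 had 0.637 to 2.13 CPM in TCDD, against 0.985 to 7.82 CPM in DMSO, with overlapping ranges, and was not called (adjusted p = 0.118), though it was called lower with no filter on low counts (adjusted p = 0.0121).

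Of 22 tested nuclear receptor genes 2 rose and none fell (median 0.13), and 1 fell without DMSO replicate 1. The glucocorticoid receptor NR3C1 had 45.6, 44.0, 50.7 and 45.6 CPM in TCDD, against 16.0, 15.3, 18.2 and 19.8 CPM in DMSO (log2 fold change 1.42 ± 0.12 SE, adjusted p = 1.59e-09). RXRA, the shared partner of many such receptors, had 239, 287, 201 and 221 CPM in TCDD, against 95.9, 100.0, 119.9 and 114 CPM in DMSO (log2 fold change 1.14 ± 0.13 SE, adjusted p = 5.55e-07). Of 15 hepatocyte transcription factors 3 rose and 3 fell (median 0.10). TBX3 rose to 188 ± 17.2 CPM in TCDD, against 59.2 ± 6.06 CPM in DMSO and GATA6 to 15.7 ± 0.202 CPM in TCDD, against 7.51 ± 1.71 CPM in DMSO. CEBPA, a factor of mature hepatocytes, had 28.8, 32.6, 35.6 and 46.3 CPM in TCDD, against 86.7, 78.8, 71.5 and 97.8 CPM in DMSO (log2 fold change -1.23 ± 0.17 SE, adjusted p = 6.07e-06), and ONECUT2 fell to 15.3 ± 1.96 CPM in TCDD, against 30.9 ± 11.3 CPM in DMSO. HNF4A had 375 to 504 CPM in TCDD, against 337 to 415 CPM in DMSO and was not called (adjusted p = 0.458).

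Of 20 tested inflammatory signalling genes 8 rose and 1 fell (median 0.48). SOCS2 and SOCS1, feedback inhibitors of cytokine receptors, moved in opposite directions: SOCS2 had 20.9, 17.2, 15.7 and 15.9 CPM in TCDD, against 1.83, 1.83, 0.872 and 1.69 CPM in DMSO (log2 fold change 3.49 ± 0.31 SE, adjusted p = 5.24e-09), and SOCS1 had 6.92, 9.23, 7.56 and 6.82 CPM in TCDD, against 17.4, 17.9, 19.8 and 15.1 CPM in DMSO (log2 fold change -1.20 ± 0.16 SE, adjusted p = 4.23e-06). NFKBIA, the inhibitor of NF-kappaB, rose to 128 ± 9.75 CPM in TCDD, against 71.4 ± 8.51 CPM in DMSO, the apoptosis inhibitor BIRC3 to 14.6 ± 2.84 CPM in TCDD, against 4.20 ± 0.731 CPM in DMSO and the interferon factor IRF1 to 19.1 ± 1.49 CPM in TCDD, against 11.3 ± 0.842 CPM in DMSO. Of 24 acute phase and coagulation genes 2 rose and none fell (median -0.03). Coagulation factor XI (F11), at 96.9 ± 28.2 CPM in TCDD, against 33.3 ± 11.2 CPM in DMSO, was among them (adjusted p = 3.65e-05). The list had 1 rise without DMSO replicate 1, 2 or 3 or TCDD replicate 2, 3 or 4, and 1 fall without DMSO replicate 1 or 4.

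Of 25 immediate early genes 2 rose and 4, EGR1 among them, fell (median 0.00). 1 fell without DMSO replicate 1 or TCDD replicate 2, 2 fell without DMSO replicate 4 or TCDD replicate 1, and 1 rose without DMSO replicate 1 or 2 or TCDD replicate 2 or 3. KLF6 rose to 158 ± 22.0 CPM in TCDD, against 70.2 ± 12.1 CPM in DMSO (adjusted p = 5.49e-05). Of 8 tested EGF receptor genes the ligand TGFA rose to 38.4 ± 5.52 CPM in TCDD, against 22.6 ± 1.26 CPM in DMSO and LRIG1, an inhibitor of the receptor, fell to 22.3 ± 2.42 CPM in TCDD, against 56.3 ± 7.29 CPM in DMSO (median 0.35). Of 18 WNT inhibitors and targets 5 rose and 1, DKK4, fell (median 0.34). The inhibitor NKD2 had 10.5, 10.6, 12.6 and 13.0 CPM in TCDD, against 2.04, 1.43, 1.26 and 1.68 CPM in DMSO (log2 fold change 2.87 ± 0.33 SE, adjusted p = 4.81e-07), and NOTUM, which inactivates WNT ligands, rose to 513 ± 74.8 CPM in TCDD, against 217 ± 56.7 CPM in DMSO. Of 12 YAP targets 3 rose (AJUBA, the receptor kinase AXL and tissue factor F3) and 1 fell (median -0.10), the fall being lost without DMSO replicate 3 or TCDD replicate 1, 3 or 4. F3 stood at 8.46 ± 0.953 CPM in TCDD, against 4.38 ± 0.641 CPM in DMSO and AXL at 18.7 ± 4.45 CPM in TCDD, against 6.96 ± 2.59 CPM in DMSO.

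Of 26 tested matrix genes 4 rose and 3 fell (median -0.02), and 1 fell without DMSO replicate 2 or TCDD replicate 3. The urokinase PLAU had 25.1, 12.7, 9.65 and 12.4 CPM in TCDD, against 2.13, 2.18, 1.08 and 1.90 CPM in DMSO (log2 fold change 3.04 ± 0.36 SE, adjusted p = 6.23e-07). TIMP2, an inhibitor of metalloproteases, rose to 104 ± 13.4 CPM in TCDD, against 64.8 ± 4.85 CPM in DMSO, and the protease MMP2 fell to 2.83 ± 0.863 CPM in TCDD, against 5.93 ± 1.06 CPM in DMSO. Lumican (LUM), which is also in the list of stromal markers, had 76, 46, 27 and 42 counts in TCDD and 1, 1, 0 and 0 in DMSO (pooled ratio 111 (30.4 to 926)). Among those 10 tested markers 1 other was called, lower, and their part in the result was not tested. The one lower call was lost without DMSO replicate 3 or 4 or TCDD replicate 4, and 2 were higher without DMSO replicate 4.

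Of 19 keratin and junction genes 2 rose and 4 fell (median -0.27). 2 fell without TCDD replicate 1, and 1 rose without DMSO replicate 1 or 4 or TCDD replicate 1 or 4. E-cadherin (CDH1), the adhesion protein of epithelial cells, had 16.8, 14.2, 11.4 and 13.7 CPM in TCDD, against 35.1, 54.1, 40.0 and 33.5 CPM in DMSO (log2 fold change -1.54 ± 0.21 SE, adjusted p = 9.68e-06). Keratin KRT80 fell to 0.785 ± 0.331 CPM in TCDD, against 3.37 ± 0.909 CPM in DMSO. SNAI2, a repressor of epithelial genes, rose to 1.59 ± 0.558 CPM in TCDD, against 0.321 ± 0.217 CPM in DMSO (log2 fold change 2.30 ± 0.49 SE, adjusted p = 0.00189), and by 2.89 on the log2 scale without DMSO replicate 2.

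None of 28 genes of DNA replication and mitosis was called by edgeR (median -0.20), none of 13 heat shock genes (0.00), none of 11 retinoid genes (-0.06) and none of 14 cytosolic ribosomal protein genes (0.19). DESeq2 called none of these either, and at an unadjusted p below 0.05 there was 1 gene lower in the first list, none in the second, 2 higher in the third and 1 higher in the fourth. Mitochondrial mRNAs had no call among 13 by edgeR or DESeq2 (0.33; 2 higher at an unadjusted p below 0.05), but 4 were higher without DMSO replicate 1, the library with the largest mitochondrial share. Biliary markers had none among 5 tested by edgeR (-0.05; 1 higher and 2 lower at an unadjusted p below 0.05, and 2 lower by DESeq2), and 1 was lower without TCDD replicate 2. Of 15 p53 targets and cell cycle inhibitors 2 fell (median -0.29): the kinase inhibitor CDKN2B, at 1.47 ± 0.612 CPM in TCDD, against 3.80 ± 0.642 CPM in DMSO, and SESN1, at 32.7 ± 5.61 CPM in TCDD, against 50.5 ± 8.41 CPM in DMSO. Of 17 hypoxia targets 2 rose (median -0.09), including the carbonic anhydrase CA12, at 3.65 ± 1.82 CPM in TCDD, against 0.684 ± 0.305 CPM in DMSO; 1 rose without DMSO replicate 1 or 2 or TCDD replicate 2, and 1 fell without DMSO replicate 1. Of 15 clock genes 2 fell (median -0.27), PER3 among them, at 3.75 ± 0.580 CPM in TCDD, against 8.05 ± 2.47 CPM in DMSO; 1 fell without DMSO replicate 1 or 2 or TCDD replicate 2 or 3. Of 14 genes of the PARP family 1 fell (median 0.13), PARP12, at 14.2 ± 1.08 CPM in TCDD, against 20.5 ± 1.89 CPM in DMSO.

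Of 19 genes of the endoplasmic reticulum and integrated stress responses 3 rose and 1 fell (median -0.16). The phosphatase subunit PPP1R15A rose to 63.1 ± 3.28 CPM in TCDD, against 32.8 ± 1.16 CPM in DMSO, the stress hormone GDF15 to 621 ± 71.0 CPM in TCDD, against 364 ± 28.1 CPM in DMSO and ATF3 to 23.9 ± 6.35 CPM in TCDD, against 10.3 ± 4.06 CPM in DMSO. No member fell without DMSO replicate 1, 2 or 4 or TCDD replicate 2 or 3, and 2 fell without TCDD replicate 1.

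The title of the series names a network of imprinted genes, which are expressed mainly from the copy of 1 parent. Of 15 tested members 2 rose and 1 fell (median 0.06), and 2 fell without TCDD replicate 1. PEG10, a retrotransposon-derived gene expressed from the paternal copy, had 1357, 934, 1112 and 1162 CPM in TCDD, against 2285, 3263, 4094 and 2727 CPM in DMSO (log2 fold change -1.44 ± 0.26 SE, adjusted p = 0.000391). ASB4, which lies in the same imprinted region, had 18.9, 11.5, 15.0 and 14.0 CPM in TCDD, against 8.68, 6.90, 5.45 and 6.66 CPM in DMSO (log2 fold change 1.10 ± 0.21 SE, adjusted p = 0.00066), so 1 fell and the other rose. The long noncoding RNA KCNQ1OT1, which silences its neighbours on the paternal chromosome, had 57.3, 59.6, 59.9 and 68.5 CPM in TCDD, against 36.5, 26.1, 27.1 and 32.6 CPM in DMSO (log2 fold change 1.00 ± 0.20 SE, adjusted p = 0.000872). It overlaps KCNQ1 on the other strand, so antisense reads could be mixed with its own if strand was not used in counting, which no label states.

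Levels in the other groups were set beside those of TCDD as a description. CYP1A1 stood at 4613 ± 1486 CPM in TCDD, 7.51 ± 7.18 in PFOS, 242 ± 176 in BPA, 8.75 ± 7.13 in TBTCl, 17.7 ± 16.5 in CdCl2, 8.52 ± 7.19 in water and 8.37 ± 6.54 in DMSO (SD, n = 4 each). CYP1B1 stood at 5.50 ± 1.04 CPM in TCDD and 0.0960 ± 0.0868 CPM in BPA, against 0.0539 ± 0.0464 CPM in DMSO. RGMB stood at 93.1 ± 5.43 CPM in TCDD and 15.2 ± 1.93 CPM in BPA, against 8.23 ± 0.767 CPM in DMSO. For CYP1A1 and RGMB, every TCDD library was above every library of every other group, and BPA came next in mean level.

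For some genes the BPA libraries had levels near those of TCDD or on the other side of DMSO, given here as values without a test of BPA against DMSO. CPT1A stood at 130.2 ± 8.28 CPM in TCDD, 136 ± 13.4 in BPA and 86.2 ± 10.6 in TBTCl, against 29.1 ± 1.25 in DMSO. MT2A stood at 202 ± 83.7 CPM in TCDD and 287 ± 112 CPM in BPA, against 28.1 ± 10.4 CPM in DMSO. PEG10 stood at 1141 ± 174 CPM in TCDD and 634 ± 301 CPM in BPA, against 3092 ± 778 CPM in DMSO. EGR1, NR0B2, CEBPA and KCNQ1OT1 had BPA means on the other side of DMSO: EGR1 stood at 8.74 ± 1.01 CPM in TCDD and 78.3 ± 19.6 in BPA, against 33.6 ± 13.3 in DMSO, and KCNQ1OT1 at 61.3 ± 4.94 CPM in TCDD and 15.9 ± 4.64 in BPA, against 30.6 ± 4.86 in DMSO.

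**Figure D5:**
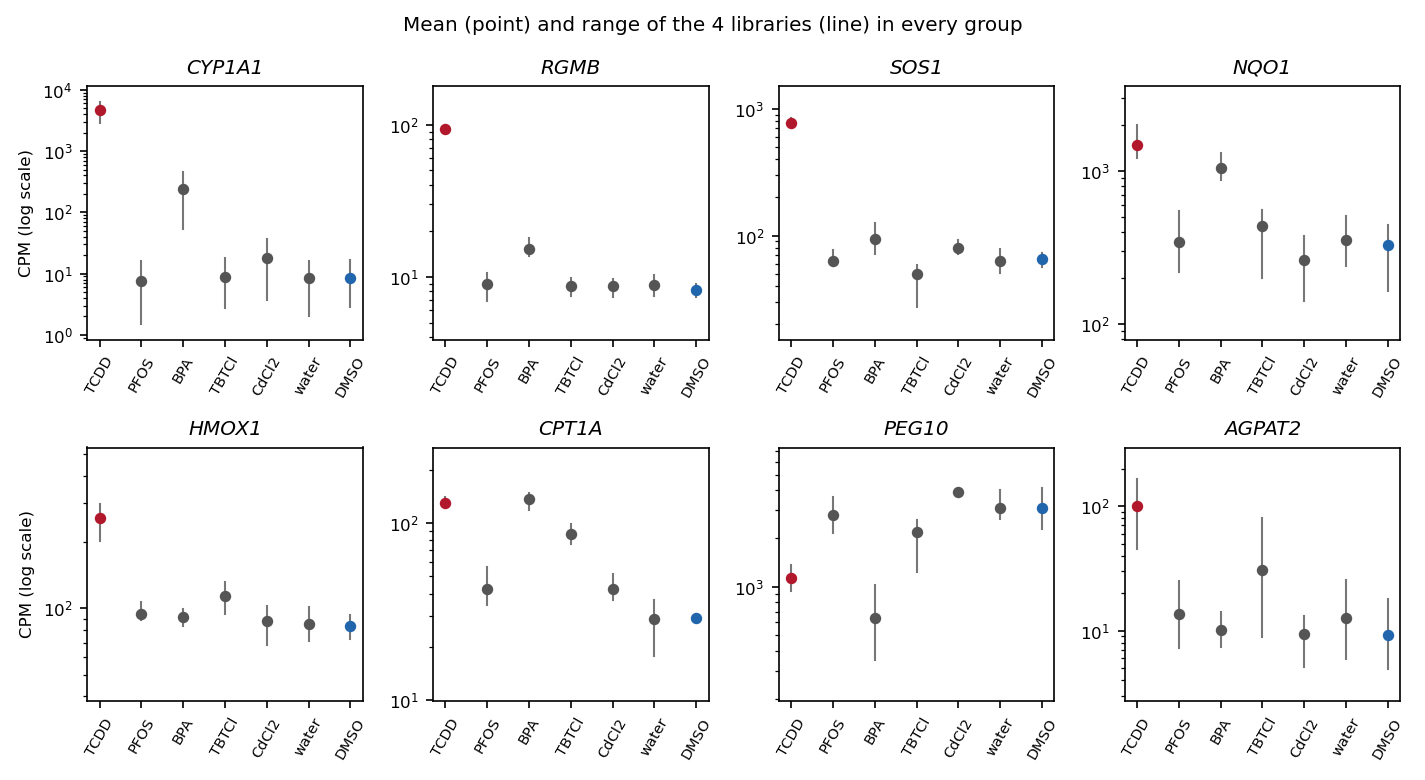
Mean level (point) and range of the 4 libraries (line) of 8 genes in every group, in CPM on log axes that differ between panels; TCDD is red, DMSO blue and the other groups grey. CYP1A1, RGMB, SOS1 and HMOX1 are highest in TCDD with no overlap, while CPT1A in BPA covers the range of TCDD.

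A second contrast set TCDD against the mean of PFOS, BPA and TBTCl, the other compounds dissolved in DMSO, in the same fit. It shares the TCDD libraries with the contrast against DMSO, so the pair is not independent. 4135 genes were called (21.9%), 2385 higher (12.7%) and 1750 lower (9.28%), and 1161 were lower without TCDD replicate 2. Of the genes described here that rose against DMSO, 89 were also higher against the other compounds and 7 were not called. The latter were GCLM, OSGIN1, ABCC3, GPAT3, ACADVL, GDF15 and ATF3, each with a higher mean in BPA than in TCDD. The NRF2 genes GCLM, OSGIN1 and ABCC3 averaged 97.5, 129 and 238 CPM in BPA, against 49.9, 64.9 and 88.2 CPM in TCDD. Of the genes that fell against DMSO, 36 were also lower and 7 were not called. The log2 difference from the other compounds was 7.51 ± 0.66 SE for CYP1A1 and 3.14 ± 0.10 SE for RGMB (adjusted p = 1.58e-09 and 3.66e-18). It was 0.72 ± 0.13 SE for CPT1A (adjusted p = 0.000196) and -0.46 ± 0.22 SE for PEG10, which was not called (adjusted p = 0.13). PEG10 averaged 2801 CPM in PFOS and 2196 CPM in TBTCl, above TCDD (1141 CPM). In BPA it averaged 634 CPM, below TCDD. For PEG10 the contrast therefore joins differences of both directions.

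The share of genes that changed differed by gene type and level. Of 13414 tested protein-coding genes 7.35% rose and 3.45% fell, of 1008 lincRNA genes 8.04% rose and 1.69% fell, of 1699 antisense genes 3.88% rose and 1.18% fell, and of 1232 pseudogenes 1.46% rose and 0.812% fell. Among genes with a mean DMSO level of 100 CPM or more, 6.21% rose and 4.23% fell, with median log2 fold changes of 0.66 and -0.55. Among genes at 0.1 to 1 CPM in DMSO, 5.09% rose and 1.56% fell. The lowest of these could pass the filter on counts only through a group in which they were higher. These shares are therefore not on equal terms. Genes below 0.1 CPM in DMSO could pass the filter on counts only through a group in which they were higher, so their share of rises, 121 of 235, is no measure of how often silent genes rose.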

How the data were processed

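Poly(A)-selected RNA was made into directional libraries and sequenced from both ends, per the labels' protocols. The deposited values are integer read counts per gene; fastp, STAR, HTSeq, DESeq2 and GRCh38 are named, without versions, per the submitters' processing notes. The annotation release and strand use were not given in the sources used here. Of 63140 gene rows, the last was left out because the file ends within it. Symbols came from a table of gene identifiers for 42291 rows; types and positions came from GENCODE release 29, which lists 58126 of the rows and may not be the release used for counting.

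Genes were kept by filterByExpr (minimum count 10; 18849 genes with 99.96% of counts), scaled by TMM, and tested by edgeR 4.0.16 (glmQLFit, glmQLFTest; R 4.3.3) with the 7 group means of all 28 libraries (21 residual degrees of freedom; common biological coefficient of variation 22.0%). CPM values use TMM-scaled library sizes. SE is the log2 fold change divided by the square root of F. Ratios of summed counts have exact conditional 95% intervals, for counting error only. Since the labels do not tie libraries to experiments, p-values measure the spread between these samples. Libraries of a group differed by more than counting error (chi-square per gene 30.8 to 174). The fit was tested on simulated data with 50 changed genes of each size. It recovered 14% of 1.5-fold, 60% of 2-fold, 90% of 4-fold and 98% of 8-fold changes, and called 6 unchanged genes. Small changes were thus often missed in the simulation. The data had 1743 calls, far more genes than were changed in the simulation. The same adjusted p was therefore harder to reach in the simulation. Its rates do not measure how many changes of each size were missed in the data.

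Named genes were, among called genes with at least 5 CPM in TCDD or DMSO and no overlap of libraries, the 15 largest rises, 10 largest falls and 10 smallest p-values, plus up to 4 called members of each list by p-value; other list members serve as examples, and genes outside the rule are said to be chosen after their values were seen. Some genes that the rule or the lists hold are not reported here by name. Members and lists were chosen with earlier results of these data known. Alternatives were DESeq2 1.42.0, other scaling factors, other count minimums, a replicate block, a test against 1.5-fold, water as the control, the 8 libraries alone, and leaving out each library. Promoter windows are RefSeq's for GRCh38.p14.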

Additional observations from a re-analysis of the deposited data

Results flagged for a closer look

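In 296 sets of 4 libraries (each gene described here, in TCDD and in DMSO), 19 had a highest or lowest library far from the other 3, by Dixon's test (95% level). That is 6.42% of the sets, where chance gives about 1 in 20. TCDD replicate 1 accounted for 7 of them, TCDD replicate 2 for 3, DMSO replicate 2 for 1, DMSO replicate 3 for 3 and DMSO replicate 4 for 5.

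TCDD replicate 1 was above the other TCDD libraries for TIPARP (27.6 CPM, others 17.0 to 18.8), ITGB7 (4.85, others 1.25 to 1.86), ALPL (17.6, others 5.98 to 7.80), DKK4 (2.92, others 1.19 to 1.30), ALOX15 (1.07, others 0.447 to 0.543), CDKN2B (2.39, others 1.09 to 1.23) and CA12 (6.35, others 2.36 to 2.98). TCDD replicate 2 was above the others for MYADML2 (16.2 CPM, others 10.6 to 11.5) and PTGDR2 (191, others 113 to 124) and below them for STARD4 (28.4, others 36.4 to 36.9).

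DMSO replicate 4 was above the other DMSO libraries for the cholesterol synthesis genes FDFT1 (1016 CPM, others 769 to 799.9) and HMGCS1 (763, others 439.8 to 480.1), and for LMCD1 (6.69, others 5.45 to 5.63) and AXL (10.8, others 5.36 to 6.09), and below them for TGFA (20.7, others 23.0 to 23.4). DMSO replicate 3 was below the others for CDX2 (0.0186 CPM, others 0.244 to 0.275) and SOCS2 (0.872, others 1.69 to 1.83) and above them for PARP12 (23.3, others 19.3 to 19.8). DMSO replicate 2 was above the others for CYP1A2 (0.143 CPM, others 0.0290 to 0.0371).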

How the results depend on the processing

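Of 139 called genes described here, 135 kept their call and direction in all alternatives in which they were tested, other than the test against 1.5-fold. FASN, HMGCS1, PSPH and TFRC did not. Of all 148 genes described, 120 were picked by a rule on the size of change or the p-value. The share that kept the call therefore does not measure how stable calls were over all genes. Over all genes, the 1743 calls became 1221 without TCDD replicate 2. In the 1.5-fold test 93 of the 139 passed and 46 did not. Of 9 genes described as not called, 4 passed with the replicate number as a block: TIPARP (adjusted p = 0.0466), UGT1A6 (0.00384), SMAD6 (0.00291) and CYP7A1 (0.0267). The 1743 calls became 2722 with the replicate number as a block (1034 lower, in place of 528) and 579 in a test against 1.5-fold (500 higher, 79 lower). Whether equal numbers mark the same experiment is not known: deviations of same-numbered TCDD and DMSO libraries correlated between -0.212 and 0.439, and 2 of 8 libraries correlated best with their own number. TCDD replicates 1, 2, 3 and 4 correlated best with DMSO replicates 2, 3, 1 and 4 (0.457, 0.35, 0.214 and 0.439). A pairing across numbers was not tested. Falls of at least 2-fold, 191, became 126 at a minimum count of 50, 297 with the block and 78 against 1.5-fold. Leaving out 1 library gave 298 to 598 lower calls, and 1161 to 1831 against the other compounds. Of list entries, 113 were called higher (57 against 1.5-fold) and 57 lower (105 with the block, 16 against 1.5-fold). The share of GCGTG in promoters of genes called lower was 48.0% with no filter and 47.9% against 1.5-fold, in place of 54.1%. DESeq2 called 2131 genes, and water in place of DMSO 1711. The causes of these shifts were not tested. At these depths 3 counts correspond to 0.0454 to 0.0955 CPM, so folds of genes near that level in DMSO rest on few reads, and a gene without a call may still have changed.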

Other observations

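Genes raised by TCDD often lay near each other. Of 256 protein-coding genes called higher by at least 2-fold and with another tested protein-coding start within 50 kb (GENCODE release 29), 84 (32.8%) had such a neighbour that was also called higher by at least 2-fold. Among 7685 genes that were not called, 398 (5.18%) had one. None of the 256 had a neighbour called lower by at least 2-fold, against 105 (1.37%) of the genes not called. The count covers 57 pairs, some of which are near copies or overlap and so can share reads, and it was made after the data were seen, with no test of chance.

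The following pairs were chosen after their values were seen. CYP1A1 and CYP1A2 start 23234 bases apart on chromosome 15. HAMP (log2 fold change 4.95) lies 11409 bases from MAG (2.43), a myelin protein, and 38545 bases from CD22 (2.76), a B cell receptor, on chromosome 19. ALDH3A1 (6.74) lies 29964 bases from the cation transporter SLC47A2 (2.90) on chromosome 17, and GSTP1 (6.56) 22058 bases from NDUFV1 (1.15), a subunit of mitochondrial complex I, on chromosome 11. AGPAT2 (3.43) lies 25147 bases from DIPK1B (3.55, or 4.16 without DMSO replicate 4) on chromosome 9. DIPK1B had 4.66, 35.7, 20.9 and 16.0 CPM in TCDD, against 1.46, 0.747, 1.06 and 3.29 CPM in DMSO, and in both groups the library with the highest value of AGPAT2 also had the highest of DIPK1B.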
